A study of Rattus norvegicus with 10 samples.

Results

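The genes described here set the G1 gate of the cell cycle, the step at which a resting cell is let into DNA synthesis or held back from it. They were chosen by name: the INK4 inhibitors Cdkn2a, Cdkn2b and Cdkn2c, the Cip/Kip inhibitors Cdkn1b and Cdkn1c, the D cyclins Ccnd1, Ccnd2 and Ccnd3, and the kinases Cdk4 and Cdk6. These 10 genes had 16 of the 41012 probes of the array, found through the transcript accession of each probe. Of the 16 probes, 15 were tested, which stand for 9 of the 10 genes; Cdkn2b was too dim.

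Liver RNA of male Sprague Dawley rats, taken at 24 h, was measured with 1 one-colour array per rat; the labels used here give no age. Control rats (n = 3) received the solvent alone, SM rats (n = 4) 3.5 mg/kg of sulfur mustard under the skin (0.7 LD50), and SM+MSTF rats (n = 3) that dose followed after 1 h by 120 mg/kg of MSTF, a mixture of salvianolic acids and total flavonoids, into the stomach. Sulfur mustard is an agent that alkylates DNA. All 3 controls shared slide 1 with SM+MSTF 3, the SM arrays filled slide 2 and SM+MSTF 1 and 2 were on slide 3, so SM and its slide cannot be told apart.

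D cyclins bind Cdk4 or Cdk6, and the active kinases phosphorylate the retinoblastoma protein, which frees E2F factors to switch on genes of DNA synthesis. INK4 proteins bind Cdk4 and Cdk6 and keep D cyclins from them, whereas Cip/Kip proteins bind cyclin and kinase complexes. In the adult liver most hepatocytes rest outside the cycle, and cyclin D1 is well known for its part in their return to it after loss of tissue.

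The tissue was checked against its markers first. All 8 hepatocyte genes looked for were well above background, a mark the scanner software gives each spot, on all 10 arrays. Their summed log2 signal was 20.49, 20.42 and 20.52 in controls, 20.40, 20.43, 20.37 and 20.38 in SM rats and 20.27, 20.45 and 20.32 in SM+MSTF rats, with Tf, transferrin, the brightest. Levels are log2 of the quantile-normalized signal throughout, differences are on the same log2 scale, and a gene is called changed at an adjusted p under 0.05 in limma with a fold change of at least 1.5. In a piece of liver, fewer cells of a type and less RNA per cell cannot be told apart.

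Cdkn2a was the gene of the G1 gate that passed the test, higher in SM rats than in controls. In that comparison 1 of 9 tested genes was called, beside 2.41% of the 22991 tested probes. Between SM+MSTF and control limma called 0 of 9, beside 0% of all probes; at an unadjusted p under 0.05 there were 0 of 9, beside 9.54%, and the methods' t-test called 0. Between SM+MSTF and SM limma called 0 of 9, beside 1.26%; at an unadjusted p under 0.05 there was 1 of 9, Cdkn2a, beside 15.9%, and the methods' t-test called 0. A count of 1 among 9 genes is too small to set them apart from that background.

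**Figure D1:**
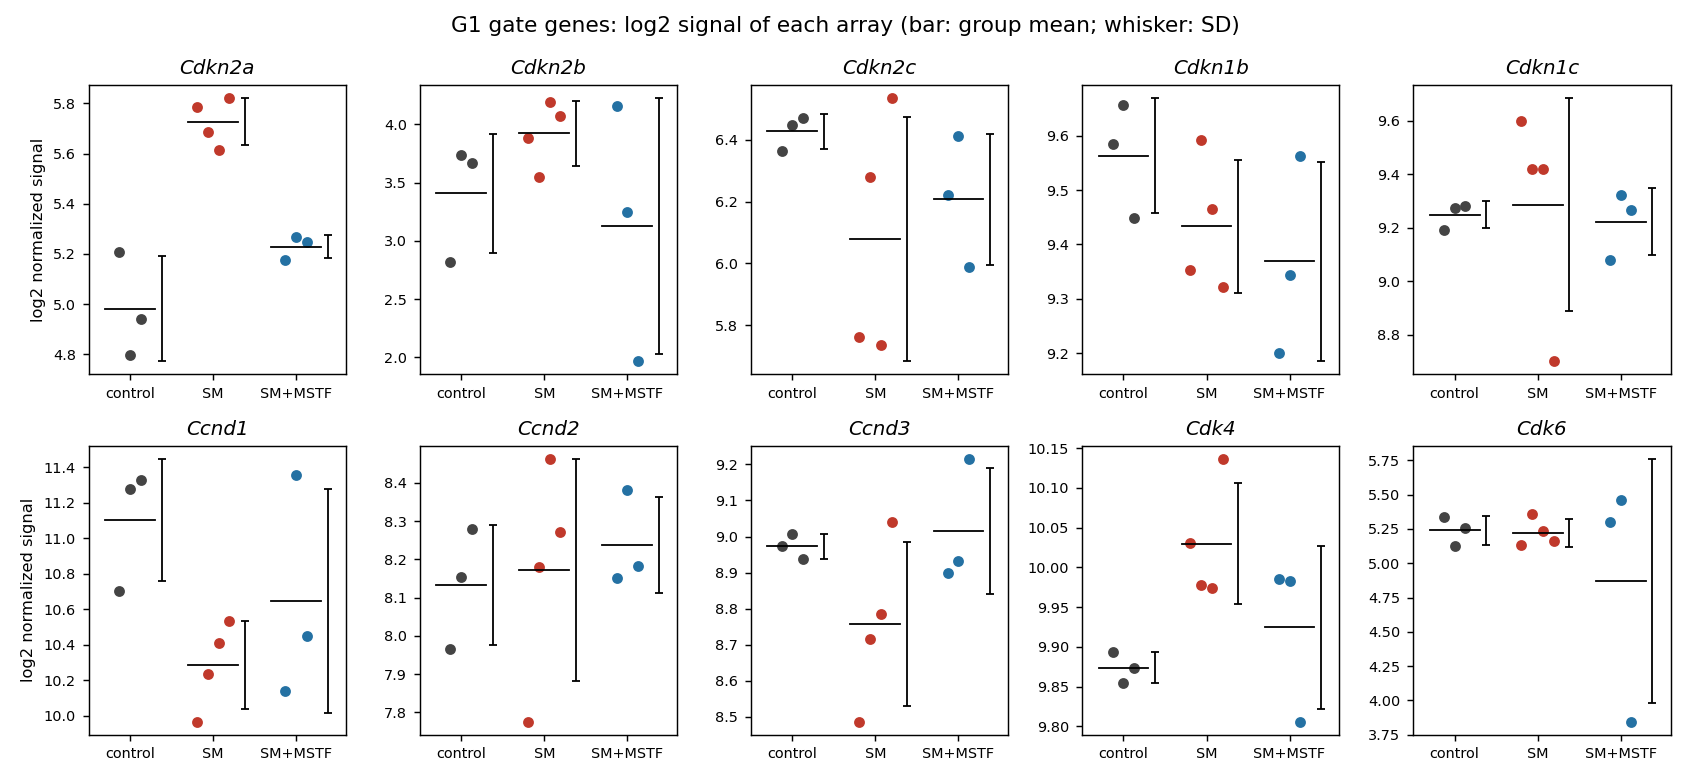
Log2 normalized signal (vertical axis, a scale of its own in each panel) of the 10 G1 gate genes by group, each point an array, with the group mean as a bar and the SD as a whisker. For Cdkn2a the 4 SM arrays lie above all others, between 5.62 and 5.82, and Cdkn2b was well above background on 1 array.

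Cdkn2a encodes the INK4a inhibitor of Cdk4 and Cdk6 and, in another reading frame, ARF, which holds back Mdm2. Its log2 signal was 5.21, 4.80 and 4.94 in controls, 5.78, 5.69, 5.62 and 5.82 in SM rats and 5.18, 5.27 and 5.25 in SM+MSTF rats. Every SM array lay above every control and every SM+MSTF array, while SM+MSTF arrays and controls overlapped through control 1. The gene had 1 probe, and whether it reads the INK4a transcript, the ARF transcript or both was not tested.

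The means were 4.98 ± 0.21 (SD, n = 3) in controls and 5.73 ± 0.093 (SD, n = 4) after SM, a difference of 0.75 (95% confidence interval from 0.50 to 0.99), and all 4 SM arrays were above the control mean. Control 2 was the 1 array of 10 on which the probe was not well above background. Cdkn2a thus entered the test through the SM and SM+MSTF groups and not through the controls, where it was lowest. The fold of SM over control is therefore given as a bound for dim signal, 1.67. There each array of the dimmer group counts with the lowest signal well above background on it where its own is lower. Such a bound makes no allowance for the spread between rats, and the confidence interval reaches below it. The limma test of the difference itself gave an adjusted p of 0.0154. The call was close to the threshold: the adjusted p lay between 0.0153 and 0.0895 over the other ways of processing, and was 0.054 with slide as a random block and 0.0895 with normexp background correction, where the difference was 0.27, smaller than that bound. With 1 array left out it lay between 0.00874 and 0.076, and the call was lost without control 2 (0.076), control 3 (0.0588) or SM 1 (0.0528). The difference was smaller than that bound without control 2 (0.65), control 3 (0.73), SM 1 (0.73) or SM 4 (0.71). Without the filter on dim probes the adjusted p was 0.0262.

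After SM+MSTF the Cdkn2a mean was 5.23 ± 0.047 (SD, n = 3). The difference from SM was -0.50 (95% confidence interval from -0.75 to -0.25, adjusted p = 0.0684), which did not pass, although all 3 SM+MSTF arrays lay below the SM mean. With normexp it was -0.22 (adjusted p = 0.19), outside that interval. Against control the difference was 0.25 (95% confidence interval from -0.018 to 0.51, adjusted p = 0.545). The comparison did not pass, and the interval includes no difference. With control 2 counted as above, the bound was a fold of 1.18, which makes no allowance for the spread between rats. The difference was smaller than this bound with normexp (0.054), with 75th percentile scaling (0.20) and without control 2 (0.15), control 3 (0.23) or SM+MSTF 2 (0.23). On slide 1, SM+MSTF 3 was 0.26 above the mean of the controls, which is also the value with slide as a fixed block. The comparisons share their arrays, so these values are not independent of each other.

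Markers of T and NK cells were looked at beside Cdkn2a. Of 8 genes 6 were tested, and Klrd1, a receptor chain of NK cells, was the 1 called. It was called lower in SM rats than in controls and higher after SM+MSTF than after SM. Its log2 signal was 5.35, 5.54 and 5.46 in controls, 4.46, 3.64, 4.30 and 4.53 in SM rats and 5.09, 5.27 and 5.78 in SM+MSTF rats. It was well above background on 2 of the 4 SM arrays and entered the test through the controls and the SM+MSTF group, where it is high. Both Klrd1 calls therefore rest on that choice and are no finding, and no fold or p is given. They were lost without the filter on dim probes, with normexp, with slide as a random block and by the methods' t-test after adjustment. That of SM+MSTF against SM was also lost with 75th percentile scaling and with only the groups compared in the fit. Leaving out any 1 of the controls, SM 1 or SM 3 ended both calls. Leaving out SM 4 or any SM+MSTF array ended the call of SM+MSTF against SM. All 6 tested genes were below 0 between SM and control (median -0.33), beside 10138 of the 22991 tested probes. Klrd1 is among the 6 and counts there through the same choice. Among genes well above background on all 10 arrays, which leaves Klrd1 out, 5 of 5 were below 0 (median -0.28). Without SM 2, 4 of the 6 were below 0 with a median of -0.14, and without SM 4 the median of the 6 was -0.57. The summed log2 signal of the list, with Nkg7 the brightest, was 10.65, 10.82 and 10.87 in controls, 10.50, 9.86, 10.60 and 11.09 in SM rats and 10.23, 10.73 and 11.29 in SM+MSTF rats, and the groups overlapped. Cd3e, a chain of the T cell receptor complex, and Cd2, which T and NK cells carry, were well above background on 1 and 3 arrays. The part of these cells in the Cdkn2a result was not tested.

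Promoter sequences are shown for Cdkn2a, the called gene, for Cdkn2b, the INK4 gene next to it on the chromosome, and for Cdk4, the kinase that the INK4 proteins of both bind. Each is 300 bases around a start that RefSeq gives for the gene, 5′ to 3′ on the strand of the gene, on the build GRCr8; Cdkn2a lies at chr5:109107907-109108206 on the minus strand, Cdkn2b at chr5:109134806-109135105 on the minus strand and Cdk4 at chr7:64771203-64771502 on the plus strand. Capitals mark matches, on either strand, to the GC box GGGCGG, the E-box CACGTG and the cyclic AMP response element TGACGTCA, none of which overlap here. RefSeq windows were matched for 6 of the 10 genes, and not for Cdkn1c, Ccnd1, Ccnd2 and Cdk6.
Cdkn2a: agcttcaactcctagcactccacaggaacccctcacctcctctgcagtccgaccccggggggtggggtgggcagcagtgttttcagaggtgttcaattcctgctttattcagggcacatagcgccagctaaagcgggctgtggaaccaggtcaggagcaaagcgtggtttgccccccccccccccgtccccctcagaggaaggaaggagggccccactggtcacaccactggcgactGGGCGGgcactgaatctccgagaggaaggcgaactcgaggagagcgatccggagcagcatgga
Cdkn2b: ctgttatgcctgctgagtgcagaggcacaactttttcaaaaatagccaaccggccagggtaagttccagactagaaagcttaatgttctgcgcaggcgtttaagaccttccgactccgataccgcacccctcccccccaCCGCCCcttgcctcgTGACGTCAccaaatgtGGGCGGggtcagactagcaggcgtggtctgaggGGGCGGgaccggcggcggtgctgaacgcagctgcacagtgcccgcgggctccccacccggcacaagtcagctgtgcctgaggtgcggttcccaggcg
Cdk4: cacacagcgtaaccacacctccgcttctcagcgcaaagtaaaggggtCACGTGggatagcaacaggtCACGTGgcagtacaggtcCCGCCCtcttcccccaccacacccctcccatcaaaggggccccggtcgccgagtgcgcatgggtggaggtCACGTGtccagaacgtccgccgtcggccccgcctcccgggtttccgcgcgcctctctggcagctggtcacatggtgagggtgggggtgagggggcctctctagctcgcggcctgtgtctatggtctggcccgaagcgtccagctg

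The Cdkn2a window lies inside the span of its gene, so at a start other than the outermost one, and holds 1 GC box. That of Cdkn2b holds 3 GC boxes and 1 cyclic AMP response element, and that of Cdk4 1 GC box and 3 E-boxes. Of all 33469 promoters of this length, 33.1% held the GC box, 1.83% the response element and 6.42% the E-box. The same search on both strands for the E2F forms TTTGGCGC (0.493% of promoters) and TTTCGCGC (0.326%), the TATA box TATAAA (14.2%), the AP-1 motif TGANTCA (7.33%) and the ETS motif CCGGAAGT (3.81%) found none of these letters in the 6 windows. CCAAT (37.5%) occurred 2 times in the Cdkn1b window and 1 time in that of Ccnd3. GC content was 62.3% for both Cdkn2a and Cdkn2b, where the median of all promoters was 51.7%.

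Cdkn2b, the INK4 inhibitor encoded beside Cdkn2a, had a log2 signal of 2.82, 3.73 and 3.67 in controls, 3.88, 3.55, 4.19 and 4.07 in SM rats and 4.16, 3.25 and 1.97 in SM+MSTF rats. It was well above background on SM 4 alone, 1 array of 10, and was not tested. On the RefSeq map 1 other protein-coding gene lies between Cdkn2a and Cdkn2b, and Mtap and Dmrta1 flank the pair. No array had the Dmrta1 probe well above background.

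Cdkn2c, an INK4 inhibitor encoded at another locus, was well above background on all 10 arrays. Its log2 signal was 6.36, 6.45 and 6.47 in controls, 5.76, 6.28, 5.74 and 6.53 in SM rats and 6.22, 6.41 and 5.99 in SM+MSTF rats. SM 1 and SM 3 were the lowest arrays and SM 4 the highest, so the SM group reached past the controls on both sides. The difference of SM from control was -0.35 (95% confidence interval from -0.79 to 0.095, adjusted p = 0.432), with an SD of 0.39 in SM rats and 0.056 in controls, and was -0.17 with normexp. For SM+MSTF versus control it was -0.22 (adjusted p = 0.764), without SM+MSTF 3 -0.11, and on slide 1 alone -0.44. Cdkn2d, the remaining INK4 gene, was read with the wider pathway and was named after its values were seen; it differed by 0.076 (adjusted p = 0.851) between SM and control.

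**Figure D2:**
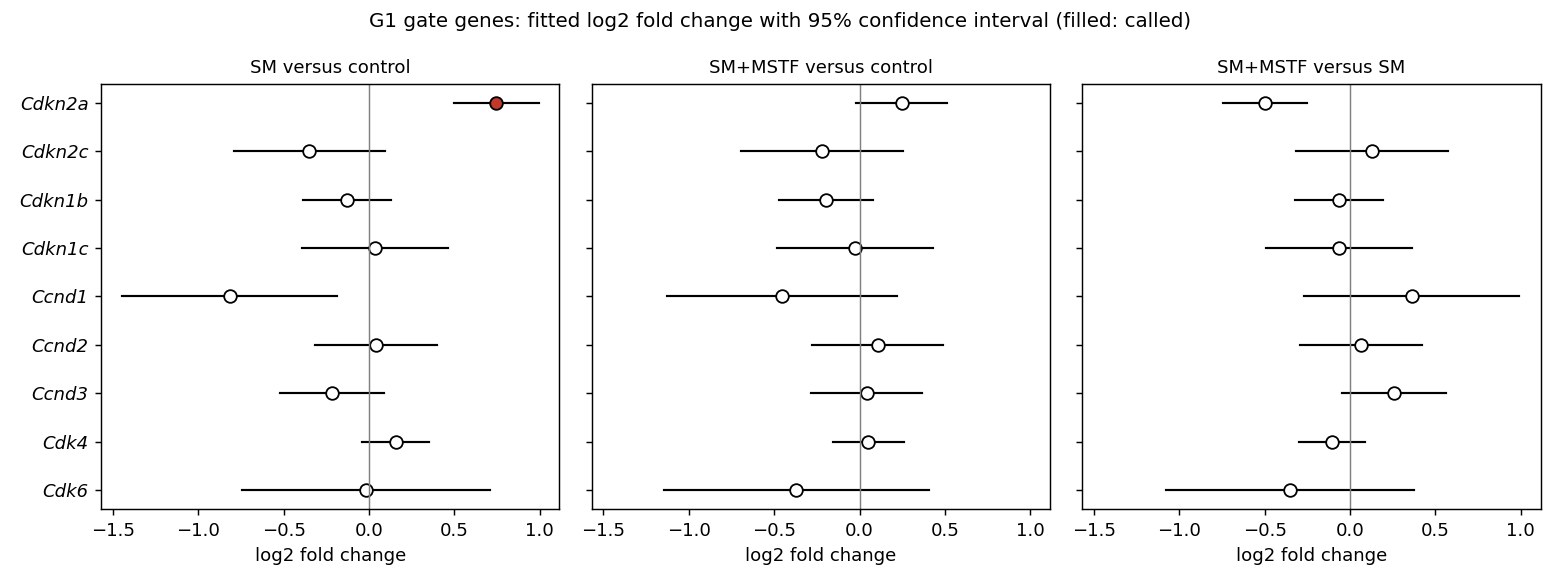
Fitted log2 fold change (horizontal axis) of the 9 tested G1 gate genes in the 3 comparisons, points with 95% confidence intervals, filled where a gene was called. Cdkn2a in SM versus control, at 0.75, is the filled point, and the intervals of Ccnd1 and Cdk6 are the widest. The Cdk6 points stand for no size, since control 2 and SM+MSTF 3 were not well above background.

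Cdkn1b encodes p27, a Cip/Kip inhibitor that is abundant in resting cells. By its brightest probe the log2 signal was 9.58, 9.66 and 9.45 in controls, 9.35, 9.59, 9.47 and 9.32 in SM rats and 9.20, 9.34 and 9.56 in SM+MSTF rats. The groups overlapped, and the difference of SM from control was -0.13 (95% confidence interval from -0.39 to 0.13, adjusted p = 0.629), an interval that stays short of 1.5-fold on both sides. SM+MSTF versus control gave -0.19 (adjusted p = 0.648) and, on slide 1 alone, -0.00014.

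The other Cdkn1b probe was printed as 10 spots on each array, which shows the error of a single spot. The SD among the spots of an array had a median of 0.045 and a range from 0.039 to 0.294, while the SD of the array means within groups was 0.16. Array means were 8.74, 8.84 and 8.997 in controls, 8.74, 8.82, 8.69 and 8.71 in SM rats and 8.56, 8.76 and 9.08 in SM+MSTF rats. Neither probe was called in any comparison, and the Pearson r between them was 0.57 over the 10 arrays. In SM+MSTF versus SM they differed in sign, -0.064 for the brighter probe and 0.062 for the other. On slide 1, SM+MSTF 3 differed from the control mean by 0.22 on the other probe. Both values of the other probe include 1 high spot of SM+MSTF 3 and would be smaller without it. The mean of that array was 9.08 with the spot and 8.99 without it.

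**Figure D3:**
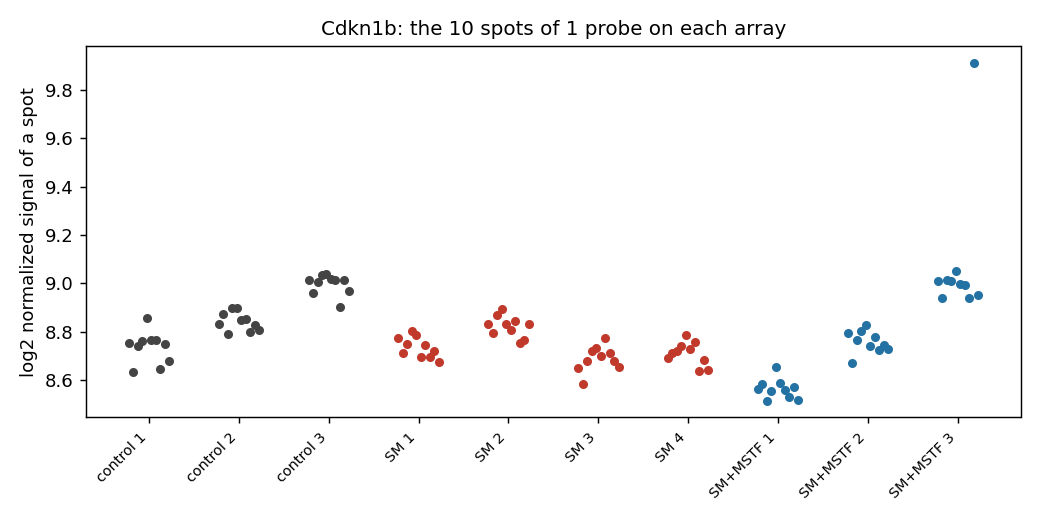
Log2 normalized signal (vertical axis) of the 10 spots of the other Cdkn1b probe on each array, each point a spot, coloured by group. The spots of an array lie within a narrow band, except for 1 spot of SM+MSTF 3 at 9.91.

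Cdkn1c encodes p57, a Cip/Kip inhibitor from an imprinted locus, and was read by 4 probes. By the brightest its log2 signal was 9.19, 9.28 and 9.28 in controls, 9.60, 9.42, 9.42 and 8.70 in SM rats and 9.08, 9.32 and 9.27 in SM+MSTF rats. SM 1, SM 2 and SM 3 were above all controls, and SM 4 was the lowest of the 10 arrays, on this probe and on each of the other 3. The difference of SM from control was 0.037 (95% confidence interval from -0.39 to 0.47, adjusted p = 0.947), with an SD of 0.40 in SM rats and 0.050 in controls, and was 0.23 without SM 4. The other probes gave 0.13, 0.14 and 0.26, and the Pearson r between probes was 0.84 to 0.96 over the 10 arrays. Between SM+MSTF and control the probes ranged from -0.026 to 0.16, 0 of 4 called by limma and 0 at an unadjusted p under 0.05; on slide 1 alone the brightest gave 0.017.

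Ccnd1, cyclin D1, had the largest difference of SM from control among the tested D cyclins. By the brightest probe its log2 signal was 10.704, 11.27 and 11.33 in controls, 9.97, 10.23, 10.41 and 10.53 in SM rats and 10.14, 11.35 and 10.45 in SM+MSTF rats. All 4 SM arrays lay below all 3 controls, while the SM+MSTF arrays were spread, with SM+MSTF 2 the highest of the 10 arrays and SM+MSTF 1 and 3 within the range of the SM rats.

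The means were 11.10 ± 0.35 (SD, n = 3) in controls, 10.29 ± 0.25 (SD, n = 4) after SM and 10.65 ± 0.63 (SD, n = 3) after SM+MSTF. The difference of SM from control was -0.82 (95% confidence interval from -1.45 to -0.19), a fold of 1.76, and did not pass (adjusted p = 0.179). The other Ccnd1 probe was another reading of the same rats and no independent repeat. It gave 10.68, 11.15 and 11.16 in controls, 10.01, 10.30, 10.52 and 10.51 in SM rats and 10.04, 11.20 and 10.36 in SM+MSTF rats. Its difference was -0.66 (adjusted p = 0.24), and the Pearson r between the probes was 0.99 over the 10 arrays. The methods' t-test called Ccnd1 in SM versus control before, and not after, Benjamini-Hochberg adjustment (adjusted p = 0.165); over the other ways of processing it lay between 0.0706 and 0.36.

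The Ccnd1 mean of the SM+MSTF group depended on SM+MSTF 1 and 2, which lay on opposite sides of it. The difference of SM+MSTF from control was -0.45 (adjusted p = 0.656), with -0.20 without SM+MSTF 1 and -0.81 without SM+MSTF 2. The difference from SM was 0.36 (adjusted p = 0.535), with 0.62 without SM+MSTF 1 and 0.0087 without SM+MSTF 2. On slide 1, SM+MSTF 3 differed from the control mean by -0.65, also the value with slide as a fixed block.

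Stellate cell markers were looked at beside Ccnd1. Of 8 genes 7 were tested, all well above background on every array, with 3 differences above 0 and 4 below between SM and control; limma called 0 in SM versus control, with 2 at an unadjusted p under 0.05, beside 16.4% of all tested probes. In SM+MSTF versus control 6 of 7 were below 0 (5 without SM+MSTF 3), with a median of -0.25. The median was -0.12 without SM+MSTF 3, -0.41 without SM+MSTF 2 and -0.58 with slide as a fixed block. In that comparison limma called 0, and 3 had an unadjusted p under 0.05, beside 9.54%. In SM+MSTF versus SM 5 of 7 were below 0 (4 without SM+MSTF 1, 3 without SM 1 or SM 2 and 2 without SM+MSTF 3). The median was -0.019, and -0.16 to 0.15 with 1 array left out. There limma called 0, and 1 had an unadjusted p under 0.05, beside 15.9%. Between SM and control, Col1a1, a fibrillar collagen chain, differed by -0.99 (adjusted p = 0.235), Col1a2 by -0.73 (adjusted p = 0.0699), Col3a1 by -0.23 (adjusted p = 0.47) and Lrat by -0.20 (adjusted p = 0.583). Above 0 were Dcn with 0.33 (adjusted p = 0.525), or 0.18 to 0.54 with 1 array left out, Des with 0.20 (adjusted p = 0.735) and Pdgfrb with 0.092 (adjusted p = 0.854). The summed log2 signal, in which Col3a1 and Col1a2 were the brightest, was 14.79, 14.81 and 14.66 in controls, 14.37, 14.40, 14.33 and 14.28 in SM rats and 14.39, 14.76 and 14.03 in SM+MSTF rats. In that sum all SM rats were below all controls and SM+MSTF 2 was the highest of its group, while for Dcn and Lrat it was SM+MSTF 1; the part of these cells in the Ccnd1 values was not tested.

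**Figure D4:**
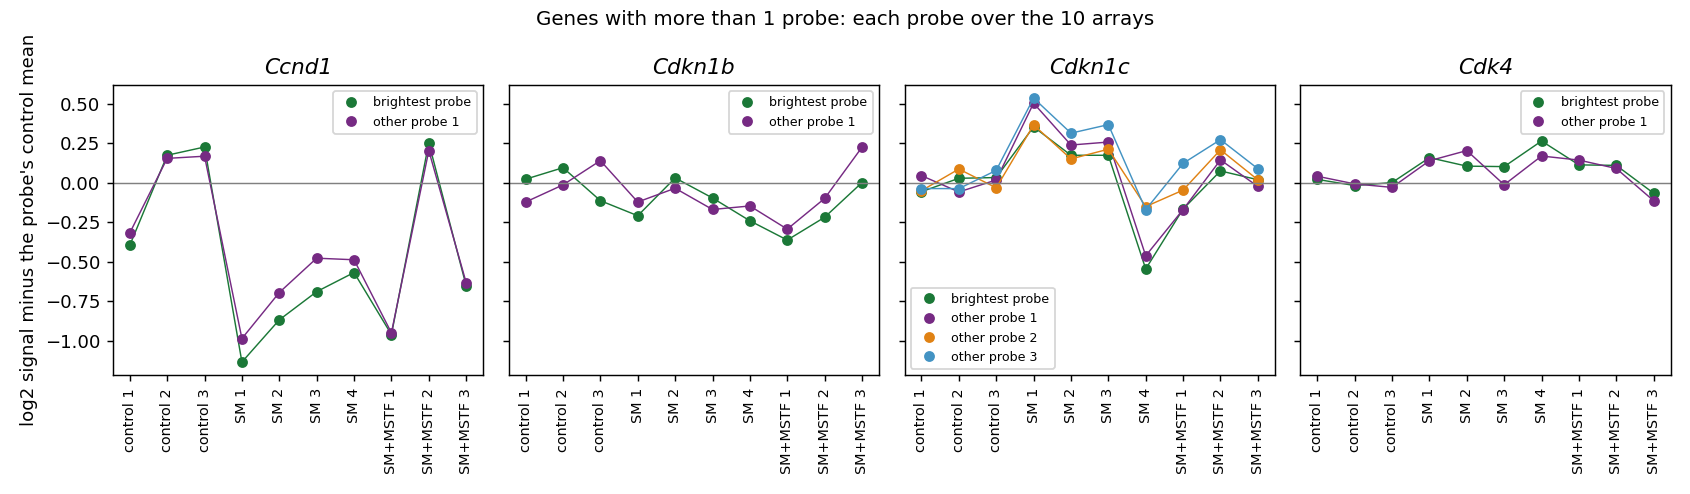
Log2 signal minus the control mean of the same probe (vertical axis) over the 10 arrays for the genes with several probes, each probe in a colour of its own, with lines that only join its points. Both Ccnd1 probes are low in the 4 SM arrays and high in SM+MSTF 2, and all 4 Cdkn1c probes are lowest in SM 4.

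Ccnd2, cyclin D2, had a log2 signal of 7.97, 8.15 and 8.28 in controls, 7.78, 8.18, 8.46 and 8.27 in SM rats and 8.15, 8.38 and 8.18 in SM+MSTF rats. The groups overlapped, with SM 1 the lowest and SM 3 the highest of all arrays, and the difference of SM from control was 0.040 (95% confidence interval from -0.32 to 0.40, adjusted p = 0.93). SM+MSTF versus control gave 0.11 (adjusted p = 0.868), and 0.049 on slide 1.

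Ccnd3, cyclin D3, had a log2 signal of 8.97, 9.01 and 8.94 in controls, 8.49, 8.72, 8.78 and 9.04 in SM rats and 8.90, 8.93 and 9.22 in SM+MSTF rats. SM 1, SM 2 and SM 3 were below all controls and SM 4 above them, with a difference of -0.22 (95% confidence interval from -0.52 to 0.088, adjusted p = 0.478), and -0.13 without SM 1. SM+MSTF versus control gave 0.042 (adjusted p = 0.946), and 0.24 on slide 1, and SM+MSTF versus SM gave 0.26 (adjusted p = 0.372). SM 1 was the lowest of the 10 arrays for each of the 3 D cyclins.

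Cdk4, a kinase partner of the D cyclins, had a log2 signal of 9.89, 9.85 and 9.87 in controls, 10.03, 9.98, 9.97 and 10.14 in SM rats and 9.99, 9.98 and 9.81 in SM+MSTF rats by its brightest probe. All SM arrays were above all controls, by 0.16 on average (95% confidence interval from -0.038 to 0.35, adjusted p = 0.42), and the interval stays short of 1.5-fold on both sides. The other probe gave 9.89, 9.84 and 9.82 in controls, 9.99, 10.05, 9.84 and 10.02 in SM rats and 9.99, 9.94 and 9.73 in SM+MSTF rats, a difference of 0.12 (adjusted p = 0.579) in which SM 3 lay within the controls. SM+MSTF versus control gave 0.051 (adjusted p = 0.884) by the brightest probe and -0.068 on slide 1, so the sign turned there.

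Cdk6, the other D cyclin kinase, had a log2 signal of 5.34, 5.13 and 5.26 in controls, 5.13, 5.36, 5.23 and 5.16 in SM rats and 5.30, 5.46 and 3.84 in SM+MSTF rats. Control 2 and SM+MSTF 3 were not well above background, and SM+MSTF 3 stood far below the other 9 arrays. It was tested through the SM group alone, the 1 group with all its arrays well above background, so no fold is given for SM+MSTF against SM, which did not pass (adjusted p = 0.604). The sign of that difference rested on SM+MSTF 3. Nor is a fold given against controls, where the adjusted p was 0.985 for SM and 0.758 for SM+MSTF. With slide as a fixed block limma called Cdk6 in SM+MSTF versus control (adjusted p = 0.00671, the lowest of a range up to 0.964). That fit sets SM+MSTF 3 alone against the controls of its slide, where both sides hold an array not well above background, so no size is given.

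In SM versus control 2 of the 9 genes, Cdkn2a and Ccnd1, had an unadjusted p under 0.05, beside 16.4% of all tested probes. The groups did not overlap for 3 of 9, Cdkn2a, Ccnd1 and Cdk4, beside 18.0%. Between SM+MSTF and control this was so for 0 of 9, beside 15.4%, and between SM+MSTF and SM for 1 of 9, Cdkn2a, beside 14.7%. The median difference of the 9 genes was -0.026 for SM+MSTF against control and -0.063 for SM+MSTF against SM, beside 0.0046 and -0.022 over all tested probes. For SM against control the median gene was Cdk6, for which no size is given. In each comparison 4 of the 9 genes were above 0 and 5 below.

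Further G1/S cyclins, kinases and inhibitors were read by 1 probe a gene, the brightest. Of 14 genes 10 were tested and limma called 0 in each comparison. Of the 9 other than Cdc25a, 2 had an unadjusted p under 0.05 for SM against control, beside 16.4% of all tested probes. There were 4 for SM+MSTF against control, beside 9.54%, and 2 for SM+MSTF against SM, beside 15.9%. Ccna2, the cyclin A of S phase, was 7.28, 8.06 and 7.88 in controls, 5.74, 6.85, 5.84 and 6.92 in SM rats and 7.01, 6.79 and 5.90 in SM+MSTF rats, all treated rats below all controls, with differences of -1.40 (adjusted p = 0.0901) for SM and -1.17 (adjusted p = 0.442) for SM+MSTF. With normexp they were -0.79 and -0.73, and with slide as a fixed block the latter was -1.84. Cdk1, the mitotic kinase, differed by -1.09 (adjusted p = 0.255) and -1.08 (adjusted p = 0.518), the latter -0.64 without SM+MSTF 3 and -1.94 with slide as a fixed block. Ccne1, cyclin E1, differed by -0.19 (adjusted p = 0.839) in SM versus control, and by -0.40 to 0.091 with 1 array left out. Cdc25a, a phosphatase that activates cyclin-dependent kinases, was well above background on 2 of 3 controls, 1 of 4 SM arrays and 3 of 3 SM+MSTF arrays. It was tested through the SM+MSTF group alone, where it was highest, so its comparisons rest on that choice and no fold or p is given.

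Downstream of the gate, limma called 0 of 7 tested pocket proteins and E2F factors and 0 of 11 tested E2F target genes in each comparison. At an unadjusted p under 0.05 there were 0 of the former in each, and of the latter 2 for SM and 2 for SM+MSTF, each against control, and 0 for SM+MSTF against SM. Over all tested probes the share was 16.4% for SM against control, 9.54% for SM+MSTF against control and 15.9% for SM+MSTF against SM. Rb1, the retinoblastoma gene, differed by 0.48 (adjusted p = 0.446) between SM and control, and by 0.27 without control 1 and 0.24 without SM 2. The E2f6 difference of 0.53 (adjusted p = 0.527) rested on SM 4 and was 0.13 without it. E2f1 differed by -0.39 (adjusted p = 0.589), and by -0.67 to -0.16 with 1 array left out, and Tfdp2 by 0.30 (adjusted p = 0.441). Of the target genes, Tyms, thymidylate synthase, differed by -0.54 (adjusted p = 0.146), the ribonucleotide reductase subunit Rrm2 by -0.54 (adjusted p = 0.272), and the replication helicase subunits Mcm6 and Mcm3 by -0.54 (adjusted p = 0.356) and -0.19 (adjusted p = 0.755). With 1 array left out the last 2 were -0.82 to -0.38 and -0.43 to -0.023. With normexp the differences of E2f6, E2f1, Tyms, Rrm2 and Mcm6 were smaller, at 0.34, -0.25, -0.35, -0.19 and -0.20.

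In the ARF arm, which the other product of Cdkn2a feeds, limma called 0 of 7 tested genes in each comparison. At an unadjusted p under 0.05 there were 0 in each, beside 16.4%, 9.54% and 15.9% of all tested probes. Cdkn2aip, a partner of ARF, differed by 0.34 (adjusted p = 0.411) between SM and control, Ddit4 by -0.38 (adjusted p = 0.613) and Bax by -0.13 (adjusted p = 0.759). With normexp Cdkn2aip gave 0.17 and Ddit4 -0.16, and with 1 array left out 0.20 to 0.50 and -0.55 to -0.25. Of 8 tested regulators of the Cdkn2a locus limma called 0 in each comparison. At an unadjusted p under 0.05 there was 1 for SM against control, beside 16.4% of all tested probes. There were 2 for SM+MSTF against control, beside 9.54%, and 3 for SM+MSTF against SM, beside 15.9%. Kdm6b, a demethylase of the mark that Ezh2 sets, differed by 0.39 (adjusted p = 0.125) between SM and control, Ezh2 by -0.13 (adjusted p = 0.732), Tbx3 by 0.30 (adjusted p = 0.641) and Ets2 by 0.083 (adjusted p = 0.882). The sign of Ezh2 turned with normexp (0.051), and with 1 array left out Tbx3 gave -0.036 to 0.63 and Ets2 -0.064 to 0.25.

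Among 13 tested genes of cyclin D transcription and turnover limma called 0 in each comparison. At an unadjusted p under 0.05 there was 1 in each. Over all tested probes the share was 16.4% for SM against control, 9.54% for SM+MSTF against control and 15.9% for SM+MSTF against SM. Axin2, a target of Wnt signalling, differed by 0.72 (adjusted p = 0.141) between SM and control, by 0.45 with normexp and by 0.48 without control 1. The AP-1 genes Jun, Fos and Junb differed by -0.68 (adjusted p = 0.313), -0.82 (adjusted p = 0.644) and -0.43 (adjusted p = 0.713). With 1 array left out Fos gave -1.24 to -0.28 and Junb -0.66 to -0.21.

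**Figure D5:**
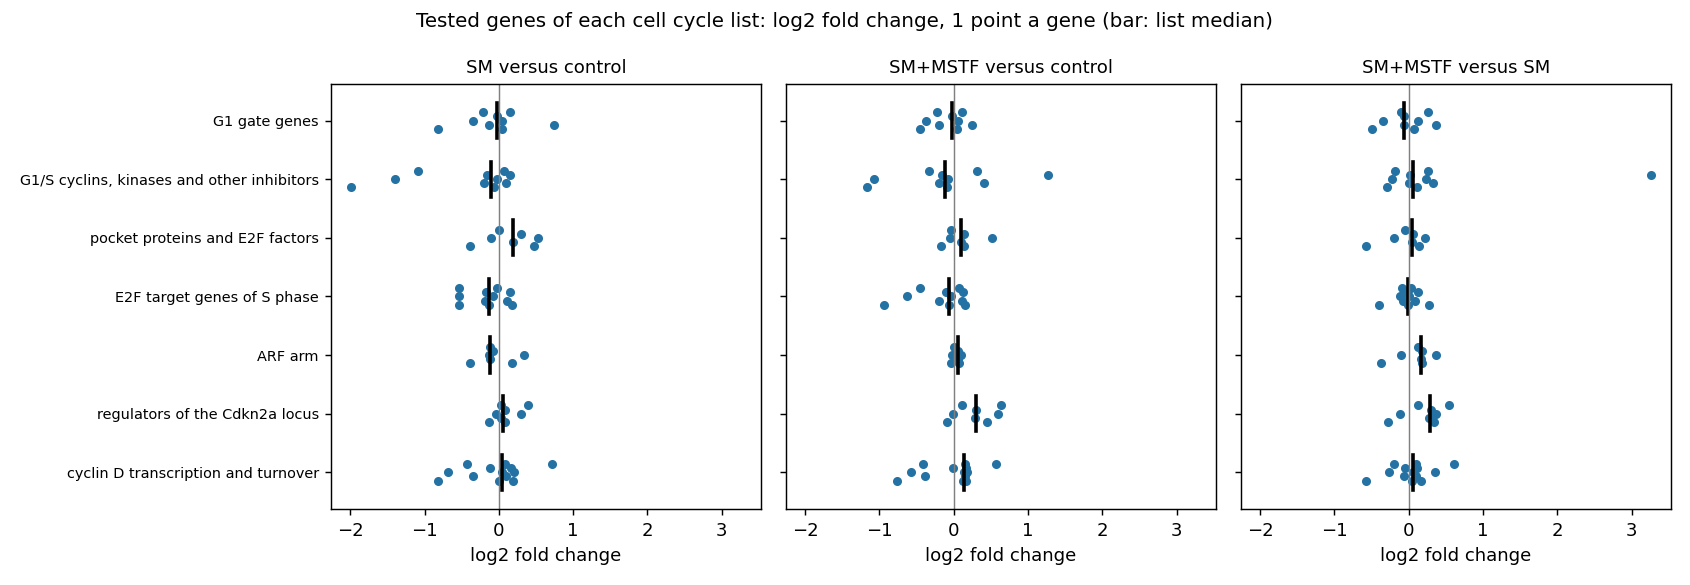
Log2 fold change (horizontal axis) of the tested genes of the 7 cell cycle lists in the 3 comparisons, 1 point a gene, with the list median as a bar. In SM versus control Cdkn2a, at 0.75, and Ccnd1, at -0.82, are the outermost G1 gate genes; the outermost point of SM+MSTF versus SM is Cdc25a, tested through the SM+MSTF group alone and not well above background on 3 SM arrays.

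Genes with a pattern most like Cdkn2a were sought among 10811 named probes well above background on all 10 arrays. The 5 nearest by Pearson r over the 10 arrays were Smc1a, a cohesin subunit (0.95), Elf2, an ETS factor (0.94), Or2a57, an olfactory receptor (0.93), Atf2, a transcription factor (0.93), and H2bc12, a histone gene (0.93). Elf2 was 6.01, 5.80 and 5.74 in controls, 8.07, 7.73, 7.70 and 7.92 in SM rats and 6.03, 6.01 and 5.98 in SM+MSTF rats, SM rats far above the rest, and was called for SM against control (2.01, adjusted p = 0.00016) and for SM+MSTF against SM (-1.85, adjusted p = 0.000228). Or2a57 was called in both too, with 0.78 (adjusted p = 0.00545) and -0.74 (adjusted p = 0.00665). With normexp the differences were smaller, 1.15 and -1.04 for Elf2, still called, and 0.38 and -0.36 for Or2a57, short of 1.5-fold (adjusted p = 0.03 and 0.062). By the methods' t-test after adjustment the Or2a57 call of SM+MSTF against SM was lost (0.0622), and over the other ways of processing its adjusted p lay between 0.00337 and 0.0587, and between 0.0063 and 0.0653. The genes were picked by likeness over the same arrays, so these calls are a description, and the SM arrays share a slide.

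For Ccnd1 the 5 nearest of 10809 probes included Rftn1 (0.94), Afm, the plasma protein afamin (0.93), Asb2 (0.90) and Lyar (0.90). They were picked on the same arrays, so the order of the arrays they share with Ccnd1 is no finding. Asb2 differed by -0.80 (adjusted p = 0.0722) between SM and control, and Lyar by -0.16 (adjusted p = 0.452).

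Of the other cell type markers, those of macrophages and Kupffer cells had 7 of 8 genes tested and 0 called by limma, with 4 at an unadjusted p under 0.05 in SM+MSTF versus SM, beside 15.9% of all tested probes, and 0 in the other comparisons. All 7 were below 0 between SM and control (median -0.15), beside 10138 of the 22991 tested probes. That direction turned for 1 of 7 with normexp or without SM 3, for 2 without control 3 and for 3 without SM 2. The median was -0.046 without SM 2 and -0.26 without SM 4 or with the replicate block. All 7 were above 0 between SM+MSTF and SM (median 0.45), also with normexp and without any 1 array, beside 10663 of the tested probes. All 7 were above 0 between SM+MSTF and control too (median 0.31), beside 11708. With slide as a fixed block it was 5 (median 0.17), and 6 without control 1, control 2, SM+MSTF 2 or SM+MSTF 3. The comparisons share arrays, and the part of these cells in the values of the G1 gate genes was not tested. Marco, a scavenger receptor, differed by -0.60 (adjusted p = 0.315) between SM and control, by -0.39 without SM 2, and by 0.96 (adjusted p = 0.147) between SM+MSTF and SM. Their summed log2 signal, with Clec4f the brightest, was 15.81, 15.66 and 16.20 in controls, 15.30, 15.09, 15.93 and 15.90 in SM rats and 15.71, 16.06 and 16.10 in SM+MSTF rats. Of 6 B cell genes Cd79b was the 1 tested, through the control group alone, where it was highest, so no fold or p is given; it was well above background on 3 of 3 controls, 2 of 4 SM and 2 of 3 SM+MSTF arrays. Erythroid markers had 4 of 6 genes tested and 0 called, with 2 at an unadjusted p under 0.05 in SM versus control, beside 16.4%. All 4 were above 0 there (3 without control 1), beside 12853 of the 22991 tested probes. Ahsp differed by 1.04 (adjusted p = 0.279), or 0.56 without control 1. Endothelial markers had 5 of 8 tested, cholangiocyte markers 3 of 7 and neutrophil markers 2 of 6, with 0 called by limma in any comparison. At an unadjusted p under 0.05 there was 1 in all, Cdh5 in SM versus control (0.32, adjusted p = 0.268, and 0.19 with normexp), beside 16.4%. Hepatocyte markers had 8 of 8 tested and 0 called by limma, with 0 at an unadjusted p under 0.05 in SM versus control. At that threshold 2 were lower in SM+MSTF versus control, beside 9.54%, and 1 in SM+MSTF versus SM, beside 15.9%. Alb differed by -0.099 (adjusted p = 0.658) between SM and control, and the control genes Actb and Gapdh by 0.039 (adjusted p = 0.944) and 0.17 (adjusted p = 0.573).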

How the data were processed

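Liver RNA of 10 rats was measured on 1-colour Agilent arrays, 1 rat per array. Per the labels, the authors obtained a background-subtracted intensity of every spot with Agilent Feature Extraction 10.7, as the submitters' processing notes name it. The deposited log2 values, which the authors made by quantile normalization in GeneSpring per the study's methods, served as an alternative; each column had a median of 5.18 and matched its own array best (r = 0.99999 across probes), which fits a log2 scale without centring, and any further settings are not given in the sources used here. Quantile normalization and the log2 came next, in R 4.3.3, then a mean for probes with several spots, after control spots and 0 to 4 non-uniform spots per array were left out; no spot was saturated. Between 21285 and 25197 probes per array were well above background, and signal over background and the number of arrays limit the precision. Accessions named 17512 of 41012 probes through RefSeq genes on GRCr8. Probes well above background throughout at least 1 group were tested with limma 3.58.1 in 1 fit over 10 arrays, with Benjamini-Hochberg adjustment over 22991 probes. Slides were read from the file headers. The normexp alternative used the median signal and median background of a spot. The procedure was tested on simulated data.

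Named were all members, the called genes and up to 4 others of each list with the largest difference in SM versus control, the 5 genes nearest to Cdkn2a and to Ccnd1, and Actb and Gapdh, apart from genes that are not reported here; other names were chosen after their values were seen. Members and lists were chosen with earlier results of these data known. The alternatives were other scalings and background correction, the filter on dim probes, the groups in the fit, the replicate number or slide as a block, the methods' t-test, no fold minimum, population outlier spots and each array left out.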

Additional observations from a re-analysis of the deposited data

Results flagged for a closer look

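In 79 sets of 4 SM arrays, 1 set for each probe looked at, 4 held an array whose gap to its nearest neighbour, as a share of the whole range, was over the 95% critical value of Dixon for 4 samples, and chance gives about 1 in 20. They were Cdc25a in SM 3, with a log2 signal of 6.35 against 1.94 to 2.00 in the other 3 (gap 0.985 of the range) and Pecam1 in SM 1, with a log2 signal of 5.27 against 4.95 to 4.99 in the other 3 (gap 0.88 of the range). The others were Lyve1 in SM 4, with a log2 signal of 11.61 against 11.06 to 11.12 in the other 3 (gap 0.881 of the range) and Gapdh in SM 4, with a log2 signal of 15.95 against 15.60 to 15.62 in the other 3 (gap 0.962 of the range). Cdc25a was well above background on 1 of the 4 SM arrays, so its gap rests on values not well above background and is no size. None of them is a G1 gate gene.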

How the results depend on the processing

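In SM versus control 553 probes were called, and 226 with normexp, 342 without the filter on dim probes, 336 with probes well above background on all 10 arrays, 85 with slide as a random block, and 1131 and 320 by the methods' t-test before and after Benjamini-Hochberg adjustment. For SM+MSTF versus control the count was 0, and 291 with slide as a fixed block and 285 by the methods' t-test before adjustment. For SM+MSTF versus SM it was 290, and 60 with normexp, 140 with probes well above background on all 10 arrays, 147 with only the groups compared in the fit, 102 with slide as a random block, and 863 and 13 by the methods' t-test. Leaving out 1 array gave 65 (without control 2) to 717 (without SM+MSTF 3), 0 to 247 (without SM+MSTF 3; 1 without control 2 and 3 without SM+MSTF 2) and 98 (without SM 1; 122 without SM 3 and 115 without SM+MSTF 1) to 301. The count for SM versus control was also lower than 553 by over 1.5 times without control 1 (135), control 3 (138) and SM 1, 2, 3 and 4 (105, 327, 178 and 255). The cause was not tested.

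With the replicate block the count was 53 for SM versus control, 0 for SM+MSTF versus control and 64 for SM+MSTF versus SM, and 0 of the 9 genes were called; for Cdkn2a the difference of SM from control was 0.71 (adjusted p = 0.0688). Samples share only a number: 3 of 9 same-numbered pairs had a correlation over 0.1 and the own number was the best match in 8 of 18 sets.

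Of the G1 gate genes, 1 was called in SM versus control. It was 0 with normexp, with probes well above background on all 10 arrays (Cdkn2a was not tested there), with slide as a random block and by the methods' t-test after adjustment (adjusted p = 0.0573), 2 by that test before adjustment, and 0 to 1 with 1 array left out. In SM+MSTF versus control it was 1, Cdk6 (resting on SM+MSTF 3, not well above background), with slide as a fixed block, which gives no value for comparisons with SM. With the replicate block the calls of Or2a57 were lost in both of its comparisons (adjusted p = 0.0587 and 0.0653). Those of Klrd1, for which no p is given, were lost too. Leaving out spots marked as population outliers, chosen after seeing the data, changed no call of these genes. Of 327 values of the 9 genes under the other settings 316 kept direction and side of the threshold, and 251 of 270 with 1 array left out. In size, 22 of their 27 differences moved by over 1.5 times or changed sign with 1 array left out and 15 with normexp, and of 70 differences of other genes 42 and 27.

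Signs turned for differences that had not passed: Cdk6 in SM versus control gave 0.033 with 75th percentile scaling; Cdkn1c in SM+MSTF versus control gave 0.017 with slide as a fixed block; Cdk4 in SM+MSTF versus control gave -0.068 with slide as a fixed block; Cdkn1b in SM+MSTF versus SM gave 0.027 with normexp with offset 50; Cdk6 in SM+MSTF versus SM gave 0.020 with normexp with offset 50. Ezh2 in SM versus control gave 0.051 with normexp with offset 50; Ets2 in SM versus control gave -0.031 with replicate block; Pecam1 in SM versus control gave 0.040 with 75th percentile scaling; Pecam1 in SM versus control gave 0.010 with replicate block; Actb in SM versus control gave -0.021 with replicate block. With 1 array left out, the sign turned in SM versus control for Cdkn1c (-0.067 to 0.23), Ccnd2 (-0.057 to 0.17), Cdk6 (-0.076 to 0.028), Ccne1 (-0.40 to 0.091), Bax (-0.22 to 0.022), Tbx3 (-0.036 to 0.63), Ets2 (-0.064 to 0.25), Epcam (-0.076 to 0.28), Pecam1 (-0.095 to 0.054), Tek (-0.0040 to 0.34), Cd68 (-0.40 to 0.026), Hbb (-0.021 to 0.72), Actb (-0.13 to 0.17) and Cdkn2d (-0.060 to 0.17). In SM+MSTF versus control it turned for Cdkn1c (-0.075 to 0.045), Ccnd3 (-0.058 to 0.10) and Cdk6 (-0.67 to 0.14). In SM+MSTF versus SM it turned for Cdkn1b (-0.16 to 0.020), Cdkn1c (-0.26 to 0.042), Ccnd2 (-0.066 to 0.16) and Cdk6 (-0.65 to 0.16). The Cdk6 values stand here for the turn of sign alone and are no sizes, since control 2 and SM+MSTF 3 were not well above background. The cause was not tested. Signal over background limits dim probes such as Cdkn2a, Cdk6 and Cdc25a.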

Other observations

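On SM+MSTF 3, 1 of the 10 spots of the other Cdkn1b probe had a log2 signal of 9.91, while the remaining 9 lay between 8.94 and 9.05. The array mean was 9.08 with it and 8.99 without it. The scanner software had marked it neither as non-uniform nor as a population outlier.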
